A study of Homo sapiens with 2 samples.

Results

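Transcripts of 10 genes for actin and for proteins that handle actin were compared between NB4 cells with CRNDE knockdown and control NB4 cells. The genes were chosen by name, as ACTB, ACTG1, TMSB4X, PFN1, CFL1, ARPC1B, ARPC2, ARPC3, CORO1A and LCP1, and all 10 were found among the 11619 genes listed in both libraries. NB4 is a line of human acute promyelocytic leukemia (APL) cells, which make the PML/RARα fusion protein. The cells had been infected with lentivirus for an shRNA against the long non-coding RNA CRNDE (sh-CRNDE) or for a non-targeting control shRNA (sh-Control), and RNA was taken on day 3. In the study's methods, infected cells were selected by the fluorescent protein ZsGreen1, and the CRNDE shRNA used for sequencing is not named. Each group had 1 library, so the differences below could not be checked in replicates and are given without p-values.

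Actin exists as single molecules and as filaments that grow, branch and are cut. In nonmuscle cells the monomers are the products of ACTB (β-actin) and ACTG1 (γ-actin). Thymosin β4 (TMSB4X) holds monomers in reserve, profilin (PFN1) delivers them to growing filament ends, and cofilin (CFL1) cuts and disassembles old filaments. The Arp2/3 complex, with the subunits encoded by ARPC1B, ARPC2 and ARPC3, starts new filaments as branches. Coronin 1A (CORO1A) binds filaments and the Arp2/3 complex, and L-plastin (LCP1) ties filaments into bundles. The last 2 proteins are typical of blood cells, in which this machinery drives migration, phagocytosis and adhesion.

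Values are FPKM, that is fragments counted per kilobase of transcript and adjusted for all mapped fragments, so that levels of different genes can be set side by side. A change is the log2(FPKM + 1) of sh-CRNDE with that of sh-Control subtracted, and a gene was called when its change was past 1.5-fold (0.585 on the log2 scale). Gene positions and exon numbers are those of GENCODE release 44 on GRCh38, with exons counted in the canonical transcript. FPKM values keep no read counts, so the depth is unknown and no counting interval can be given. CRNDE itself was at 5.92 FPKM in sh-Control against 1.85 in sh-CRNDE. Of the myeloid marker genes, MPO was at 1135 and 738 FPKM and PRTN3 at 200.5 and 41.8 FPKM in the same order, AZU1 and CD33 were also lower in sh-CRNDE, and ELANE was not listed. The part of these differences in the values below was not tested. CD3E, MS4A1, HBB and COL1A1, markers of other cell types, were not listed, and EPCAM was at 4.82 FPKM in sh-Control against 4.49 in sh-CRNDE. These are bulk libraries, in which fewer cells of a kind and less RNA per cell cannot be told apart.

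The actin pair is shown first as sequence, because the products are nearly the same protein while the transcripts can be told apart. The coding sequences of ACTB and ACTG1 are both 1125 bases long without the stop codon, differ at 98 positions, and are 91.3% identical (GENCODE release 44, GRCh38). Translated, they give 375 residues each and differ at 4 of them. Of the first 90 coding bases, 17 differ, and these stand in capitals in the sequences of ACTB (chr7:5529568-5529657, minus strand) and ACTG1 (chr17:81512265-81512354, minus strand), each within 1 exon and read 5′ to 3′.
ACTB: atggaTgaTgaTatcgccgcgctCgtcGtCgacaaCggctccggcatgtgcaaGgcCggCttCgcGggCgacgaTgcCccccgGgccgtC
ACTG1: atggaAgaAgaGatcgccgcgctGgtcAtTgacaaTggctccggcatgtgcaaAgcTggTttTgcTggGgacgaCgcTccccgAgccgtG
The longest stretch that the coding sequences share without a difference is 59 bases. Of the 1763 windows of 50 bases in the canonical ACTB transcript, 10 also occur in transcripts of ACTG1. Copies elsewhere share more, since 10.9% of the ACTB windows and 4.23% of the ACTG1 windows occur in at least 1 other gene, processed pseudogenes and the POTE genes among them.

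Both actin genes were lower in sh-CRNDE, without passing 1.5-fold. ACTB (ENSG00000075624, chr7:5526409-5563902, minus strand, transcript of 6 exons) stood at 814 FPKM in sh-Control against 659 in sh-CRNDE, a change of -0.30. It was the gene with the 5th highest value of all listed genes in sh-Control and the 9th in sh-CRNDE. ACTG1 (ENSG00000184009, chr17:81509413-81523847, minus strand, transcript of 6 exons) stood at 276 FPKM in sh-Control against 192 in sh-CRNDE, a change of -0.52. This was the lowest change of the 10 genes, and 10.6% of all listed genes had a lower one. Summed, the pair made up 1090 FPKM in sh-Control against 851 in sh-CRNDE. ACTB held 74.7% of that sum in sh-Control and 77.5% in sh-CRNDE, a share that multiplying a library by a factor does not alter. Of the muscle actin genes, ACTA1, ACTC1 and ACTG2 were not listed, and ACTA2 was at 1.06 FPKM in sh-Control against 0.605 in sh-CRNDE.

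The transcription factor SRF, which binds a short element named the CArG box, is known to drive actin genes when its coactivators MRTFA and MRTFB sense that free actin monomers are scarce. RefSeq promoter sequences (GRCh38.p14, from 250 bases before the start of a gene to 50 bases after it) matched 8 of the 10 genes by symbol. ACTB and ARPC1B had no entry. The CArG box reads the same on both strands, and 1 of the 8 genes, ACTG1, had a match, against 1.29% of all 35116 promoters in the table. The 150 bases before the RefSeq start of ACTG1 (chr17:81512800-81512949, minus strand) are shown with the box in capitals, as only ACTG1 had a match. This stretch lies within the GENCODE bounds of the gene given above, since RefSeq and GENCODE place its start differently.
ACTG1 promoter: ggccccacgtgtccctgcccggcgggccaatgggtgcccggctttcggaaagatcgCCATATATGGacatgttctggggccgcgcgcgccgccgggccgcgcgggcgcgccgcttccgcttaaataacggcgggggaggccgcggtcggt
A match is a description of the letters and not evidence of binding. SRF was at 11.3 FPKM in sh-Control against 11.2 in sh-CRNDE. MRTFA, listed under its older symbol MKL1, was at 4.24 and 3.33 FPKM, and MRTFB, listed as MKL2, at 1.32 and 0.577 FPKM in the same order, with changes of -0.27 and -0.56. None of these genes passed 1.5-fold as deposited with a pseudocount of 1. MKL2 did with a pseudocount of 0.1, at -1.07, and after the GC subtraction described below, at -0.64.

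Among the proteins that bind monomers or cut filaments, TMSB4X and PFN1 were slightly higher and CFL1 slightly lower in sh-CRNDE. TMSB4X (ENSG00000205542, chrX:12975110-12977227, plus strand, transcript of 3 exons) stood at 441 FPKM in sh-Control against 519 in sh-CRNDE, a change of 0.23. PFN1 (ENSG00000108518, chr17:4945652-4949061, minus strand, transcript of 3 exons) stood at 144 and 157 FPKM in the same order, a change of 0.13, which turned to -0.02 after quantile normalization. CFL1 (ENSG00000172757, chr11:65823022-65862026, minus strand, transcript of 4 exons) stood at 105 and 89.0 FPKM, a change of -0.24, which turned to 0.02 when both libraries were scaled to GAPDH. None of the 3 genes passed 1.5-fold. Exact copies of parts of these transcripts bear on the TMSB4X value most, as 28.1% of its windows of 50 bases occur in other genes, 5 pseudogenes in all. One of these, TMSB4XP4, is listed at 0 in the control and reached 2.37 FPKM after knockdown, far below TMSB4X itself. For PFN1, 14.5% of the windows occur in 1 pseudogene, and for CFL1 0.585% occur in 2 pseudogenes.

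The 3 Arp2/3 subunit genes did not move in the same direction. ARPC1B (ENSG00000130429, chr7:99374249-99394816, plus strand, transcript of 10 exons) stood at 39.3 FPKM in sh-Control against 29.3 in sh-CRNDE, a change of -0.41. ARPC2 (ENSG00000163466, chr2:218217141-218254356, plus strand, transcript of 11 exons) stood at 37.6 and 42.1 FPKM, a change of 0.16, and ARPC3 (ENSG00000111229, chr12:110434823-110450422, minus strand, transcript of 7 exons) at 80.3 and 90.0 FPKM, also a change of 0.16. The ARPC1B transcript overlaps another annotated protein-coding gene, ENSG00000284292, which is not listed in the files and holds 82.0% of the ARPC1B windows, so that reads of this locus may have been assigned to either gene. ARPC2 shares none of its windows with another gene, and ARPC3 shares 28.5%, mostly with processed pseudogenes.

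Of the genes typical of blood cells, both were higher in sh-CRNDE. CORO1A (ENSG00000102879, chr16:30182827-30189076, plus strand, transcript of 11 exons) stood at 57.2 FPKM in sh-Control against 72.3 in sh-CRNDE. Its change of 0.33 was the highest of the 10 genes, and it reached 0.59 and passed 1.5-fold when both libraries were scaled to GAPDH. A partial copy of CORO1A, listed as RP11-345J4.6, shares 6.35% of the windows and was at 3.08 FPKM in sh-Control against 0.0941 in sh-CRNDE. LCP1 (ENSG00000136167, chr13:46125920-46211871, minus strand, transcript of 16 exons) stood at 153 and 177 FPKM, a change of 0.21, and none of its windows occurs in another gene.

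**Figure D1:**
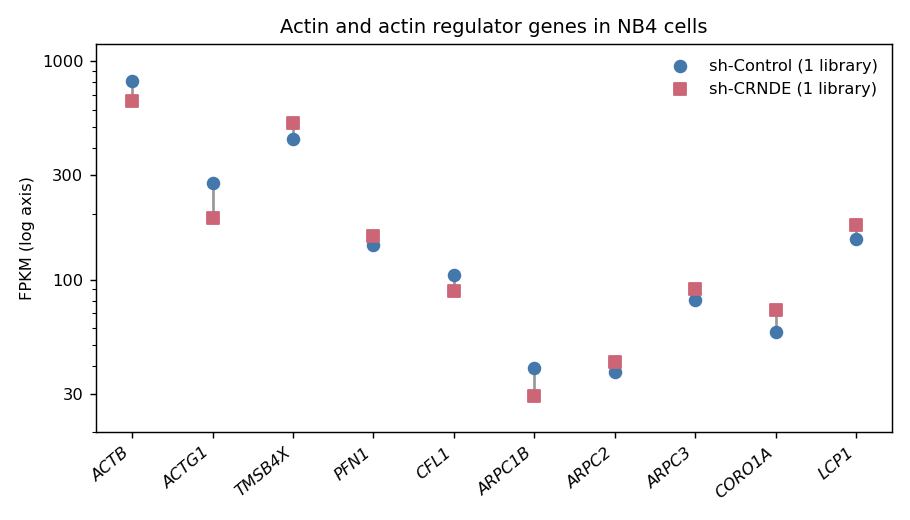
FPKM of the 10 genes (log axis) in the sh-Control library (circles) and the sh-CRNDE library (squares), joined by a line for each gene, with 1 library per group and no error bars. ACTB, ACTG1, CFL1 and ARPC1B are lower in sh-CRNDE and the other 6 genes higher, and no gene moves by as much as 1.5-fold.

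As a set, 0 of the 10 genes passed 1.5-fold, while 17.2% of all 11619 listed genes did. Among the 191 genes whose mean was 100 FPKM or more, which include 5 of the 10 genes, the share was 13.1%. In sh-CRNDE 6 of them stood higher and 4 stood lower, and their changes ran from -0.52 to 0.33. The median change was 0.15, against -0.01 over all listed genes and 0.06 over those 191 genes. Together the 10 genes summed to 2147 FPKM in sh-Control against 2027 in sh-CRNDE. Their share of all listed FPKM was 1.52% in sh-Control and 1.19% in sh-CRNDE, but 1.53% and 1.43% once mitochondrial, ribosomal RNA and small RNA genes were left out. The difference between these figures comes with MT-RNR2, a mitochondrial ribosomal RNA gene at 27614 FPKM in sh-CRNDE that is listed at 0 in the control.

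The order of levels was much the same in both libraries. ACTB was highest, followed by TMSB4X, ACTG1, LCP1 and PFN1 in both. CFL1 stood above ARPC3 in sh-Control and just below it in sh-CRNDE, at 89.0 against 90.0 FPKM. ARPC1B stood above ARPC2 in sh-Control and below it in sh-CRNDE. Whether neighbours in this order differ beyond the spread between samples cannot be said from 1 library per group.

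**Figure D2:**
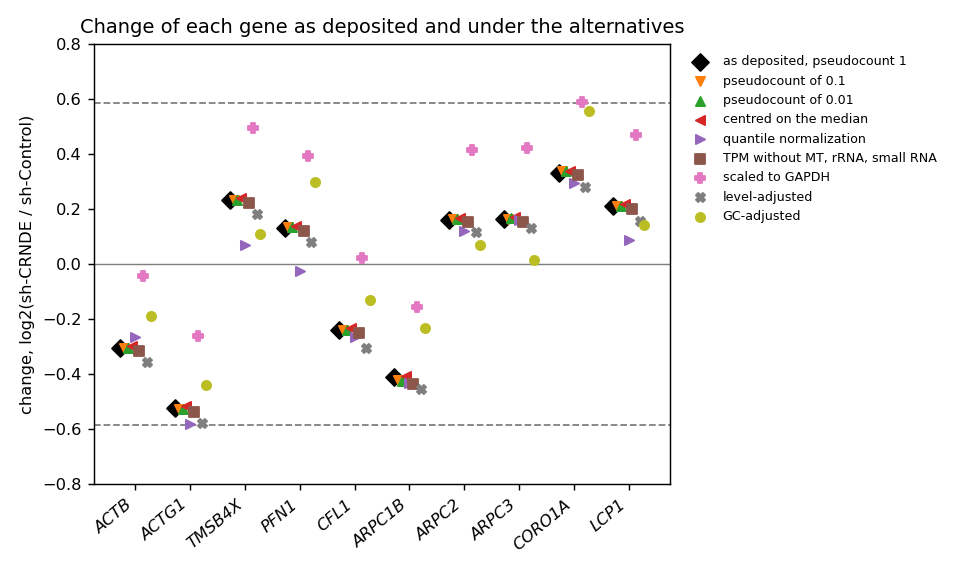
Change of each gene on the log2 scale (vertical axis) as deposited (black diamonds) and under 8 alternatives of scaling or pseudocount (coloured markers), with dashed lines at 1.5-fold. ACTG1 stays lowest and reaches -0.58 after quantile normalization, CORO1A is highest as deposited and passes 1.5-fold only when scaled to GAPDH, and the signs of PFN1 and CFL1 each turn under 1 alternative.

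Ratios between genes within a library do not depend on any factor by which the library was scaled. TMSB4X stood at 0.405 of the summed actin FPKM in sh-Control and at 0.610 in sh-CRNDE, a difference of 0.59 on the log2 scale. Relative to ACTB alone, the ratio planned beforehand, TMSB4X stood at 0.542 and 0.787 in the same order. That difference of 0.54 is short of 1.5-fold. The GC subtraction described below does change such ratios, with TMSB4X then at 0.11, ACTB at -0.19 and ACTG1 at -0.44. PFN1 stood at 0.132 of the actin sum in sh-Control and 0.185 in sh-CRNDE, and CFL1 at 0.0960 and 0.105. Together the transcripts of these 3 actin-binding proteins stood at 0.633 of the actin sum in sh-Control and 0.900 in sh-CRNDE. All pairs of the 10 genes were then compared, a comparison chosen after the values were seen. The ratio moved by more than 1.5-fold in 12 of 45 pairs (26.7%). Among all pairs of genes whose mean was 30 FPKM or more, it did so in 33.6%, so the ratios among the actin genes did not move more often than those among other well expressed genes. Of the 12 pairs, 6 held ACTG1, 5 held ARPC1B and 1 held ACTB, and ARPC1B passed only narrowly against ARPC2 and ARPC3, with log2 changes of the ratio of -0.59 in both. After subtraction of the median change of genes of like GC content, 5 pairs passed, 4 of them with CORO1A. The share over all gene pairs after this subtraction is not given here, so whether 5 is few or many cannot be said. The pair that moved most was ACTG1 and CORO1A, with 4.82 times as much ACTG1 as CORO1A in sh-Control and 2.65 times in sh-CRNDE. This follows from the single-gene values, as these genes had the lowest and the highest change, and the pairs add no independent result. Within the Arp2/3 complex, ARPC1B stood at 1.05 times ARPC2 in sh-Control and 0.695 times in sh-CRNDE.

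Around the 10 genes, 154 further genes of the actin pathway were looked up by role, and 121 of them are listed. Of these, 8 rose and 10 fell past 1.5-fold, which is 14.9% of them, where 8.38% of all listed genes rose and 8.83% fell. Their median change was -0.06. When both libraries were scaled to GAPDH, which moved the median of all genes by 0.19, 14 rose and 7 fell. With a pseudocount of 0.1 in place of 1, 23 of the 121 genes passed, 9 higher and 14 lower. The shares over all listed genes are given here only as deposited, so these other counts say nothing particular about the pathway. None of the listed genes for formins (9), filament end capping (10), membrane linkers (7) or nonmuscle myosins (11) passed 1.5-fold with a pseudocount of 1. These roles are named because of their values, and lists this short say little about a role. The formin DAAM1 (0.397 and 0.998 FPKM) and the membrane linker ZYX did pass with a pseudocount of 0.1.

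In the Arp2/3 complex, 7 further subunit genes are listed, of which 1 rose and 1 fell, and these encode alternative forms of the same subunit. ARPC5 fell from 8.68 to 2.56 FPKM, a change of -1.44. ARPC5L rose from 2.77 to 8.73 FPKM, a change of 1.37. Summed, the pair was at 11.4 FPKM in sh-Control against 11.3 in sh-CRNDE, with ARPC5 at 75.8% of the sum in sh-Control and 22.7% in sh-CRNDE. ARPC1A, the alternative form of ARPC1B, was at 20.9 and 18.9 FPKM, and held 34.7% of the ARPC1A and ARPC1B sum in sh-Control and 39.2% in sh-CRNDE. ACTR2 and ACTR3, the actin-related proteins that seed the branch, were at 122 and 147 FPKM and at 20.3 and 15.4 FPKM, with changes of 0.26 and -0.38. ARPC4 (0.06) and ACTR3B (-0.26) also did not pass 1.5-fold.

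Of 17 listed activators of the Arp2/3 complex, 2 fell and none rose. WASF2, a subunit of the WAVE complex, fell from 30.8 to 8.60 FPKM, a change of -1.73. WIPF2 fell from 3.81 FPKM to 0.735 FPKM. WAS, HCLS1 and NCKAP1L, genes of this group that are typical of blood cells, had changes of -0.05, 0.16 and 0.14. WIPF1 had the highest change of the group, 0.39. ABI3, at 1.44 FPKM in sh-Control against 0.731 in sh-CRNDE, had a change of -0.50, and of -0.89 with a pseudocount of 0.1.

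Among 17 further genes of bundling and crosslinking proteins, 3 rose and 2 fell. FSCN1 (fascin), which packs filaments into tight bundles, fell from 62.6 to 15.9 FPKM, a change of -1.91, and FLNA (filamin A), which crosslinks filaments into networks, from 68.3 to 41.5 FPKM, a change of -0.71. MARCKSL1 rose from 3.72 to 27.3 FPKM, the highest change of the whole set at 2.58. SWAP70 reached 11.0 FPKM in sh-CRNDE, 2.20 times its level in sh-Control, and DBNL rose with a change of 0.63. TPM3, a tropomyosin that coats filaments, rose from 22.7 to 65.6 FPKM, a change of 1.49, while TPM4 had a change of -0.29.

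Of 12 further monomer binding and severing genes, TWF2 (twinfilin 2) fell from 35.4 to 22.4 FPKM and the other 11 did not pass 1.5-fold, CAP1 at 0.07 among them. Among 7 listed genes that control cofilin by phosphorylation, 1 rose narrowly, SSH2 (0.59), and 2 fell, SSH3 (-0.61) and PDXP (-3.14). Over all listed genes 17.2% passed, and counts from 7 genes say little about this role. LIMK1 and LIMK2, the kinases that inactivate cofilin, had changes of -0.11 and -0.10. From the 4 further coronin genes listed, CORO2A rose and CORO1B fell, with changes of 1.07 and -0.84. CORO1C (-0.15) and CORO7 (-0.43) did not pass. The median of the 4 was -0.29, against 0.33 for CORO1A. Of the genes that passed, PDXP, SSH3 and WIPF2 were below 1 FPKM in sh-CRNDE and are named because of their values.

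**Figure D3:**
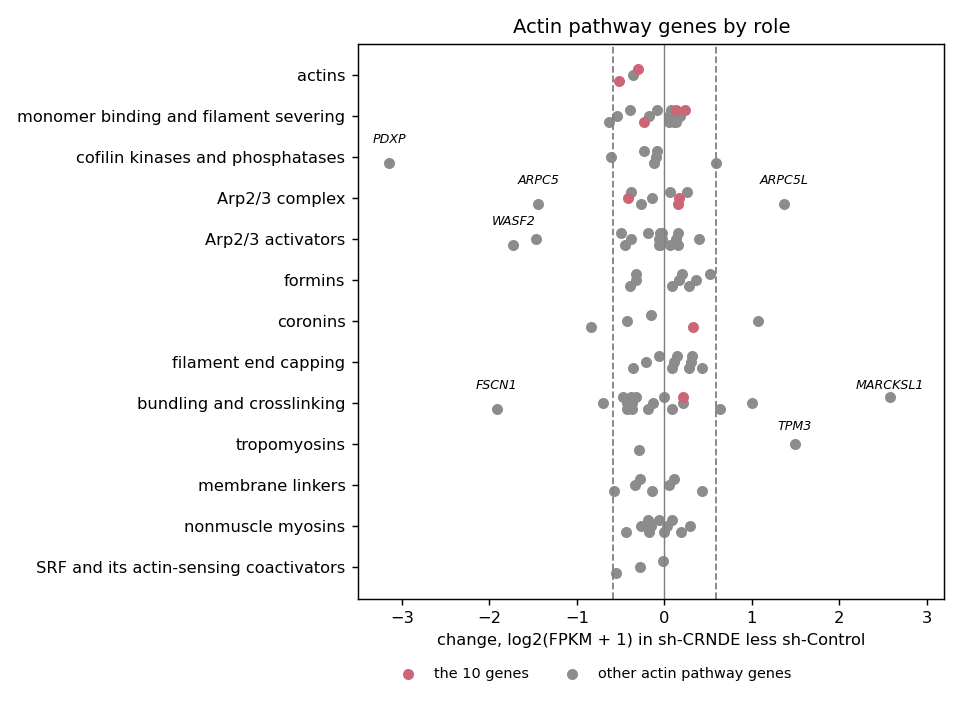
Change on the log2(FPKM + 1) scale (horizontal axis) of the 10 genes (red) and of other listed actin pathway genes (grey), 1 point per gene in rows by role, with 1 role left out, with dashed lines at 1.5-fold. The 10 genes lie between -0.52 and 0.33, while other genes of the pathway lie well outside, from PDXP at -3.14 to MARCKSL1 at 2.58.

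The change moved with the GC content of the transcript. The 8733 genes that reached 1 FPKM in each library were divided into 4 equal groups by GC content. The group with the lowest GC content had a median change of 0.17 and the group with the highest a median change of -0.25. The 4 genes of the set that were lower in sh-CRNDE had a GC content between 54.7% and 57.8%. Of the 6 that were higher, TMSB4X, LCP1, ARPC2 and ARPC3 lay between 42.3% and 46.2%, but PFN1 was at 58.2% and CORO1A at 62.0%. Across the 10 genes, which share both libraries, Pearson's r between change and GC content was -0.37, and across the 8733 genes it was -0.33. After the median change of the genes nearest in GC content was subtracted, every one of the 10 genes kept its sign. ACTB then had a value of -0.19, ACTG1 of -0.44, ARPC1B of -0.23 and CFL1 of -0.13. ARPC3 came to 0.02 and ARPC2 to 0.07, while PFN1 came to 0.30 and CORO1A to 0.56. The part of GC content in these changes was not tested. Of the 18 other pathway genes past 1.5-fold, 12 remained past it after this subtraction, while CORO1B, FLNA, SSH2, SSH3 and TWF2 were among those that did not. In all 13 were then past it, as MKL2 was gained at -0.64.

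**Figure D4:**
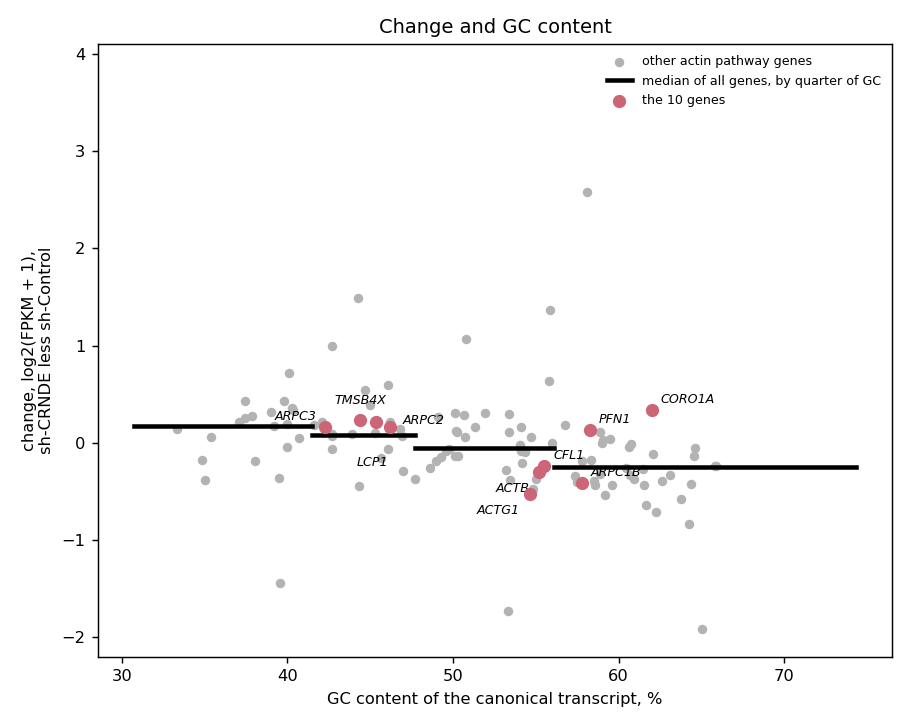
Change on the log2(FPKM + 1) scale against GC content of the canonical transcript (%) for the 10 genes (red) and the other actin pathway genes that reached 1 FPKM in each library (grey). Black bars give the median change of all such genes in each of 4 groups by GC content, from 0.17 to -0.25. The 6 genes that were higher in sh-CRNDE lie above the bar of their group, and the 4 that were lower lie below it.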

How the data were processed

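RNA of NB4 cells was compared, 1 per group, with groups taken from the sample titles. According to the submitters' processing notes, reads were trimmed with fastp 0.20.0, aligned to GRCh38 with HISAT2 2.0.4 and quantified with StringTie 1.2.3. Library preparation used the Illumina TruSeq kit, and the study's methods name an Illumina MiSeq as the sequencer. The authors deposited FPKM values per gene, and no listed gene is at or below 0.5 FPKM in both libraries.

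From these values, log2(FPKM + 1) was taken and sh-Control was subtracted from sh-CRNDE, with no filter on genes. The pseudocount and the 1.5-fold threshold follow the study. With 1 library per group no test was run. The 10 genes and the role lists were chosen with earlier results of these data known. Besides the 10 genes, CRNDE and GAPDH, the genes named are listed Arp2/3 and actin genes, the pathway genes past 1.5-fold that also reached 1 FPKM in each library, and others chosen after their values were seen. The genes of 1 role and 1 marker gene are not reported here by name, but the pathway genes of that role are in the counts.

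Positions, GC content and sequences come from GENCODE release 44 (canonical transcripts, matched for 11508 of 11619 identifiers) and RefSeq. The window of 50 bases is a choice made here, as the read length is not given in the sources used here. Alternatives were pseudocounts of 0.1 and 0.01, centring on the median, quantile normalization, rescaling to TPM, scaling to GAPDH, subtraction of the median change of the genes nearest in level or in GC content, and a threshold of 2-fold. The change as deposited, centring, quantile normalization and the level subtraction were tested on simulated data. The other alternatives, among them the GC subtraction and the scaling to GAPDH, were not. Python 3.11.15, numpy 2.4.6, pandas 2.3.3, biopython 1.88 and matplotlib 3.10.9 were used.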

Additional observations from a re-analysis of the deposited data

How the results depend on the processing

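With 1 library per group, condition and library are confounded and cannot be told apart, and the depth that would limit each value is unknown. No paired analysis was possible because each group had 1 library, and no replicate could be left out. None of the 10 genes passed 1.5-fold as deposited, nor under the other alternatives tried, except that 1 gene, CORO1A (0.59), did so after scaling to GAPDH. GAPDH itself was at 942 FPKM in sh-Control against 785 in sh-CRNDE. The median change of the 10 genes, 0.15 as deposited, was 0.40 after scaling to GAPDH, 0.0231 after quantile normalization and 0.0422 after the GC subtraction. The signs that turned were those of CFL1 (0.02, scaled to GAPDH) and PFN1 (-0.02, quantile normalization). The count of other pathway genes past the threshold was 18 as deposited and 10 with a threshold of 2-fold. For settings other than the deposited values, the share over all listed genes is not given here. With a pseudocount of 0.1 or 0.01 it was 23 or 24, the genes gained being below 1 FPKM in at least 1 library except ZYX. Of the pairs among the 10 genes, 12 moved past 1.5-fold as deposited and 5 after the GC subtraction, which for pairs was added once the values were known. The share of ACTB among the actin FPKM did not move when pseudogene entries were added, as neither actin gene has one listed under its symbol.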
